A study of Homo sapiens with 10 samples.

Results

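The insulin-like growth factor (IGF) binding proteins are a family of secreted carriers, encoded by IGFBP1 to IGFBP7. The genes were chosen by symbol alone, and all 7 were among the 42335 gene symbols measured in each library. Of these, 6 passed the filter on low values used for testing (at least 1 FPKM in at least 2 libraries), as did 15779 genes in all, and IGFBP1 did not. FPKM is the number of fragments scaled to transcript length and library total, so levels can be compared between genes.

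The samples were 10 bulk RNA libraries of H9, an established human embryonic stem cell line, taken along a neural differentiation. The Ctrl libraries are labelled wild type and the V1PAKI libraries carry the genotype SOX1-OT V1 PAKI, an abbreviation the labels do not spell out. Each line gave 1 library at d0 (stem cells), d4, d10, d16D and d16V (labelled stem-cell-derived NP cells), where the number is the day and the labels do not explain D and V. Per the labels' protocols, cells were grown as floating embryoid bodies, moved to a neural medium on day 4 and attached on day 7, and cultures meant for ventral telencephalon received Sonic hedgehog and the agonist SAG from day 10. Nothing in the labels says how many clones or cultures each line stands for, and no treatment other than this differentiation is given.

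The IGF binding proteins hold IGF1 and IGF2 outside the cell, lengthening their life in the circulation while keeping them from the receptor IGF1R until proteases such as PAPPA cut the carrier. IGFBP1 to IGFBP6 bind IGFs tightly, IGFBP7 binds them weakly, and several members also act on cells without IGF. In the developing nervous system IGF signalling supports the growth and survival of progenitors, and IGFBP2 and IGFBP5 are known as carriers made in the embryonic brain.

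In the GENCODE v29 annotation of GRCh38, the family lies in 2 adjoining pairs and 3 single genes, all protein coding. IGFBP1 (ENSG00000146678, chromosome 7, 45888357 to 45893668, plus strand) and IGFBP3 (ENSG00000146674, chromosome 7, 45912245 to 45921874, minus strand) face each other across 18.6 kb. IGFBP2 (ENSG00000115457, chromosome 2, 216632828 to 216664436, plus strand) and IGFBP5 (ENSG00000115461, chromosome 2, 216672105 to 216695525, minus strand) face each other across 7.7 kb. The single genes are IGFBP4 (ENSG00000141753, chromosome 17, 40443461 to 40457731, plus strand), IGFBP6 (ENSG00000167779, chromosome 12, 53097436 to 53102345, plus strand) and IGFBP7 (ENSG00000163453, chromosome 4, 57030773 to 57110385, minus strand). The start of IGFBP7 shares 624 bp with IGFBP7-AS1 on the other strand. Strand treatment is not given in the sources used here, but IGFBP7-AS1 did not exceed 0.0917 FPKM in any library.

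RefSeq start sites on GRCh38.p14 were found for 5 of the 7 genes in the promoter table. The 100 bases before the start site are printed for the genes with a single listed start, because IGFBP3 and IGFBP5 were lowest in stem cells in both lines while the highest library of IGFBP4 and of IGFBP6 was a stem cell one. They run 5′ to 3′ on the gene's strand, and capitals mark matches on either strand to 3 A and T rich words and 1 GC word, which are spelled out after the sequences.
IGFBP3, chr7:45921273-45921372, minus strand: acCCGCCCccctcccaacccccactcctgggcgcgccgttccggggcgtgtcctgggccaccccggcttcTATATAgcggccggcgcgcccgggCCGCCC
IGFBP5, chr2:216695550-216695649, minus strand: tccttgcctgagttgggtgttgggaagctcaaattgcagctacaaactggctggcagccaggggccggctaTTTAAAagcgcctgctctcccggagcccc
IGFBP4, chr17:40443350-40443449, plus strand: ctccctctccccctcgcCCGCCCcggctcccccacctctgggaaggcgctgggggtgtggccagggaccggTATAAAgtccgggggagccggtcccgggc
IGFBP6, chr12:53097567-53097666, plus strand: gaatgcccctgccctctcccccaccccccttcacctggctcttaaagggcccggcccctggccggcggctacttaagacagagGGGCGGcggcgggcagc
An A and T rich word began 30 bases before the start site in IGFBP3 (TATATA), 29 bases before it in IGFBP5 (TTTAAA) and 29 bases before it in IGFBP4 (TATAAA), and none of these words was in the IGFBP6 window. Among 35116 promoter windows of the same length, TATATA occurred in 1.65%, TTTAAA in 4.06% and TATAAA in 4.99%. The GC word GGGCGG, found in 31.3% of the windows, occurred at 2 places in IGFBP3 and at 1 place each in IGFBP4 and IGFBP6. The IGFBP3 window held 13 CG dinucleotides and the IGFBP5 window 3, against a median of 5 over all windows. The words were picked after the sequences had been seen, and a match describes the letters only.

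Summed FPKM lay between 200509 and 256270 per library and between 10193 and 15177 genes were listed at 0. SOX1-OT, a noncoding RNA that overlaps SOX1 and is named in the genotype, stood at 0.212 and 1.22 FPKM in V1PAKI at d16D and d16V, against 1.87 and 3.51 in Ctrl, and below 0.1 in the other 6 libraries. The summed FPKM of 6 ventral forebrain and hedgehog response genes was 184.3 and 154.4 at d16V and at most 10.9 elsewhere. The 8 pluripotency markers summed to between 1289 and 1625 FPKM at d0 and d4 and to between 145 and 294 at day 16. Of the day 16 sums, LIN28A alone gave 91.0 to 212 FPKM. POU5F1 stood at 5.64 and 17.6 FPKM in Ctrl d16D and d16V, and at 34.2 and 6.85 in V1PAKI. The 10 neural progenitor markers summed to between 423 and 797 FPKM at day 16, against 95.9 and 134 at d0. Markers of other tissues were also present: 8 yolk sac and liver genes summed to 3091 FPKM in V1PAKI d16D, 550 and 325 in Ctrl d16D and d16V, and 13.0 in V1PAKI d16V. In bulk RNA, more cells of a type and more RNA per cell cannot be told apart.

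In stem cells the family was made up almost wholly of IGFBP4 and IGFBP2, and IGFBP3, IGFBP5 and IGFBP7 each made up less than 1% of it. IGFBP4 contributed 53.5% of the family's summed FPKM in Ctrl d0 and 58.3% in V1PAKI d0, and IGFBP2 contributed 42.6% and 36.9%. At d10 the most abundant member was IGFBP3, with 54.3% of the sum in Ctrl and 36.0% in V1PAKI. At d16V it was IGFBP5, with 33.1% and 42.8%. At d16D the lines differed in this order: IGFBP2 led in Ctrl with 50.6% and IGFBP3 led in V1PAKI with 28.2%. The family's summed level was lowest in Ctrl d4, at 87.2 FPKM, and highest in Ctrl d10, at 364 FPKM.

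**Figure D1:**
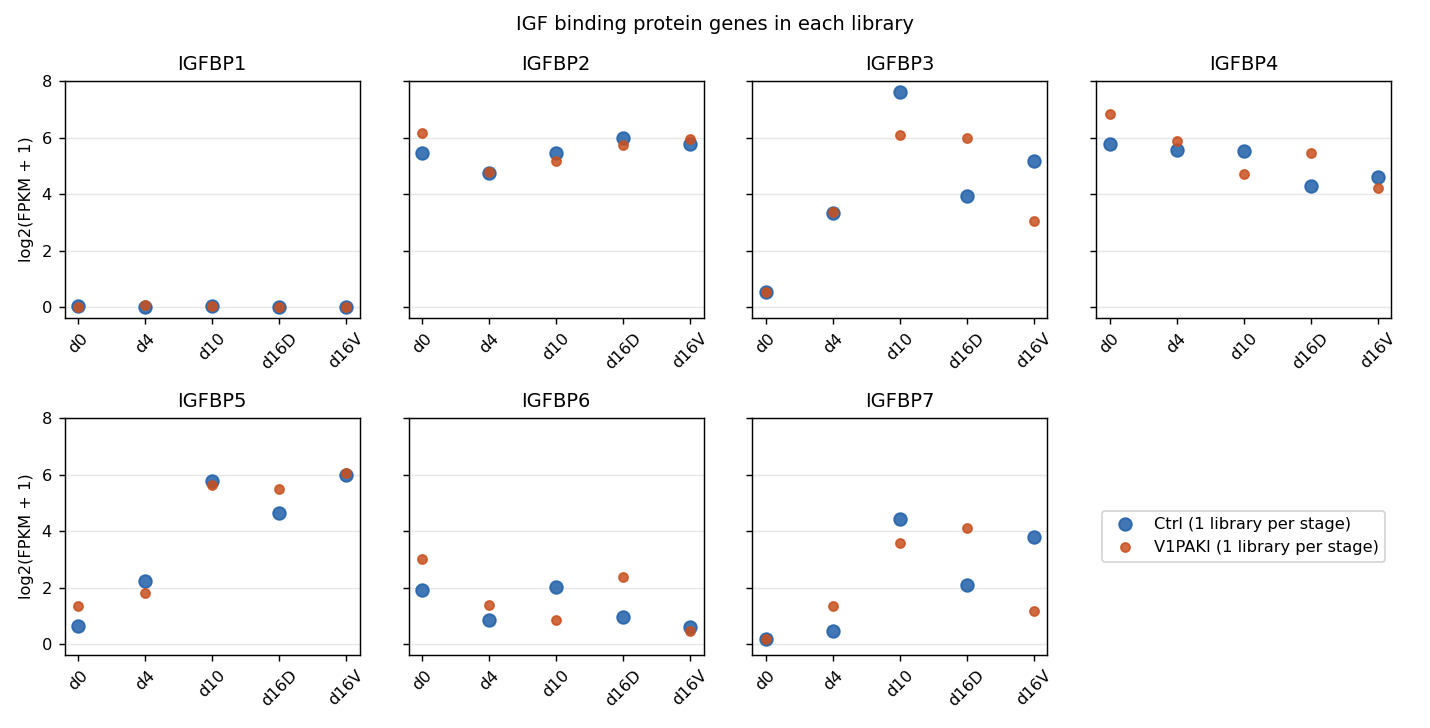
Level of each IGFBP gene as log2(FPKM + 1) on the vertical axis against stage on the horizontal axis, with 1 point per library (large blue, Ctrl; small orange, V1PAKI) and no error bars because each line has 1 library per stage. IGFBP2 and IGFBP5 points of both lines lie close together at most stages, whereas IGFBP3 and IGFBP7 points lie far apart at d16D and d16V, in opposite order.

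IGFBP5, IGFBP3 and IGFBP7 were all higher at d10 than at d4 in both lines, and of these IGFBP5 passed the test, in a call that some single libraries decide. This carrier, which binds matrix as well as IGFs, stood at 0.560, 3.69, 53.2, 23.8 and 62.6 FPKM in Ctrl at d0, d4, d10, d16D and d16V, and at 1.55, 2.49, 48.9, 44.4 and 66.4 FPKM in V1PAKI. Every library from d10 onward lay above every library of d0 and d4. Between d4 and d10 the level rose 14.4-fold in Ctrl and 19.7-fold in V1PAKI. By limma, which was fitted to all genes with stage and genotype as terms, the change was 3.68 on the log2(FPKM + 1) scale (SE 0.33, adjusted p = 0.0125). It was the 1 member called among 6 tested, where 227 of 15779 genes (1.44%) were called in either direction and 0.919% were called higher. Another 2 members, IGFBP3 and IGFBP7, had an unadjusted p below 0.05, as 15.2% of genes did, and the 3 were also the members higher by at least 1 on the log2 scale in both lines, as 2.07% of genes were. Leaving out the Ctrl d4, V1PAKI d4 or V1PAKI d10 library gave adjusted p = 0.0588, 0.201 and 0.0642 for IGFBP5 in limma, and using no filter gave 0.0724.

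By stage, the mean IGFBP5 level over the lines was 1.05 ± 0.70 FPKM at d0, 3.09 ± 0.85 at d4, 34.1 ± 14.6 at d16D, 51.1 ± 3.08 at d10 and 64.5 ± 2.64 at d16V (SD, n = 2 lines). Ranges of d10 and d16D did not overlap, but d16D varied most. At day 16 both lines had more IGFBP5 in the d16V library than in the d16D library, 2.63-fold in Ctrl and 1.50-fold in V1PAKI. That difference was 0.97 on the log2 scale (SE 0.33) and did not pass in limma (unadjusted p = 0.0190, adjusted p = 0.664).

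The genes most like IGFBP5 over the 10 libraries were RAX, a homeobox gene of the eye field, PRTG, a surface protein of early neural and mesodermal progenitors, and FGF8, a growth factor of brain signalling centres. Their Pearson r values were 0.99, 0.98 and 0.98 on log2(FPKM + 1), over 2100 candidate genes whose values span at least 2. RAX, for example, stood at 24.3 and 29.6 FPKM in Ctrl and V1PAKI at d10 and at 29.6 and 48.9 at d16V. Libraries of 1 series share stage and line, so these r values are descriptions without a test.

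IGFBP3, the main carrier of IGFs in blood, had the widest range of the family. It stood at 0.472, 9.07, 197.7, 14.3 and 35.7 FPKM in Ctrl at d0, d4, d10, d16D and d16V, and at 0.457, 9.34, 68.6, 63.3 and 7.35 FPKM in V1PAKI. The lines were alike at d0 and d4 and apart from d10 onward. In Ctrl d10 it ranked 117th of all 42335 genes by FPKM. The d4 level was 19.2-fold the d0 level in Ctrl and 20.4-fold in V1PAKI, with a log2 change of 2.80 (SE 0.84) that did not pass in limma (adjusted p = 0.242). The d10 level was 21.8-fold and 7.35-fold the d4 level, with a log2 change of 3.53 (SE 0.84) that did not pass either (adjusted p = 0.0963). Without the Ctrl d16D or the V1PAKI d16D library, the adjusted p of limma for d4 to d10 was 0.0294 and 0.0295.

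From d10 to d16V the IGFBP3 level was 5.54-fold lower in Ctrl and 9.34-fold lower in V1PAKI, a log2 change of -2.75 (SE 0.84) that did not pass in limma (adjusted p = 0.155). Without either d16D library it did (adjusted p = 0.0408 and 0.0411). From d10 to d16D it was 13.8-fold lower in Ctrl and 1.08-fold lower in V1PAKI. By stage the means were 0.464 ± 0.010 FPKM at d0, 9.21 ± 0.19 at d4, 21.5 ± 20.0 at d16V, 38.8 ± 34.6 at d16D and 133 ± 91.3 at d10 (SD, n = 2 lines). The values at d16D and d16V overlapped, and d10 was above both arms in each line.

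IGFBP7, a weak IGF binder found around blood vessels and in connective tissue, had a similar pattern at lower levels, with its V1PAKI peak at d16D instead of d10. It stood at 0.123, 0.365, 20.8, 3.23 and 13.0 FPKM in Ctrl at d0, d4, d10, d16D and d16V, and at 0.143, 1.55, 11.1, 16.2 and 1.26 FPKM in V1PAKI. All 4 libraries of d0 and d4 were at or below 1.55 FPKM, and so was V1PAKI d16V. The change from d4 to d10 was 3.12 on the log2 scale (SE 0.91) and did not pass in limma (adjusted p = 0.158), although both lines were higher at d10, 57.0-fold in Ctrl and 7.14-fold in V1PAKI. Over the 10 libraries the Pearson r between IGFBP3 and IGFBP7 was 0.94, the highest of the 15 pairs among the 6 tested members.

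**Figure D2:**
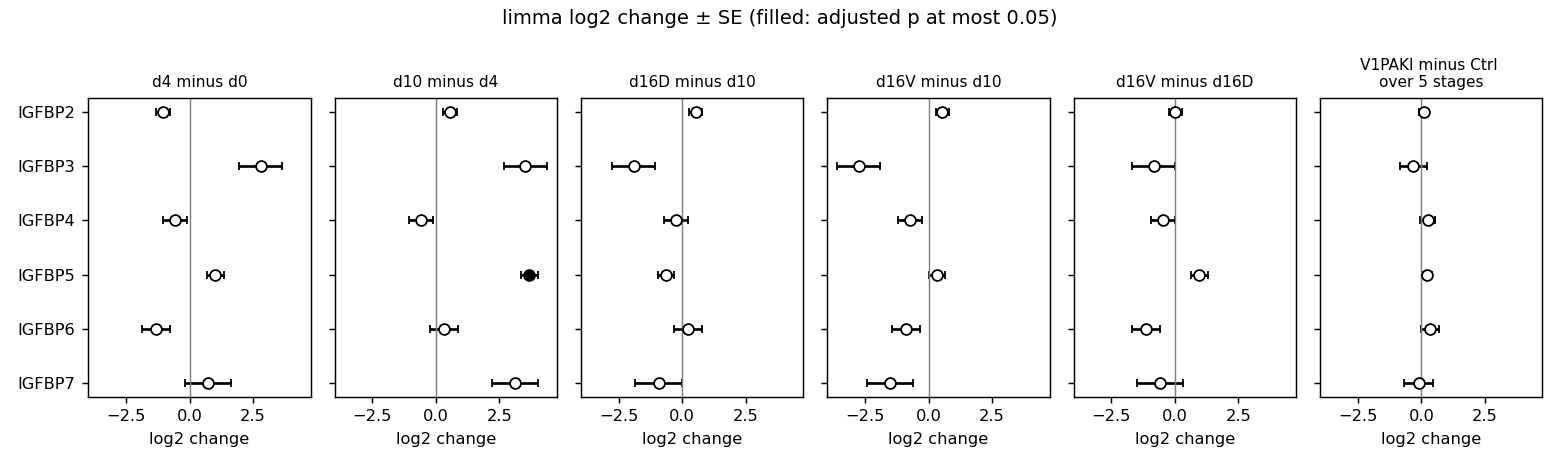
Log2 change of the 6 tested genes (rows) in limma, 1 panel per comparison, with the standard error as bars and filled circles where the adjusted p was at most 0.05. The filled circle is IGFBP5 at d10 minus d4, with a change of 3.68, and bars are widest for IGFBP3 and IGFBP7.

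Genes closest in pattern to IGFBP3 were AHNAK (r = 0.97), a large scaffold protein, the imprinted noncoding RNA H19 (r = 0.97) and LUM (r = 0.96), which encodes the matrix proteoglycan lumican. Those closest to IGFBP7 were the water channel AQP1 (r = 0.98), the matrix protein gene POSTN (r = 0.98) and the iron exporter SLC40A1 (r = 0.97). LUM and POSTN also belong to the mesenchyme marker list used here. LUM stood at 99.1, 15.4 and 40.2 FPKM in Ctrl d10, d16D and d16V, and at 51.6, 92.1 and 1.12 FPKM in V1PAKI.

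The whole list of 10 mesenchyme markers was COL1A1, COL1A2, COL3A1, LUM, DCN, POSTN, TWIST1, PRRX1, PDGFRA and PDGFRB. Its sum was highest in V1PAKI d16D and Ctrl d10, which were also the highest libraries of IGFBP7. The list summed to 22.7, 31.8, 752, 183 and 298 FPKM in Ctrl at d0, d4, d10, d16D and d16V, and to 28.7, 36.8, 169, 1131 and 9.63 FPKM in V1PAKI. V1PAKI d10 had more IGFBP3 than Ctrl d16D (68.6 against 14.3 FPKM) at a lower marker sum. The list's median log2(FPKM + 1) was, however, higher in V1PAKI d10 than in Ctrl d16D, at 2.91 against 2.02. LUM, DCN and COL3A1 were listed at 0 in both d0 libraries, as was PRRX1 in Ctrl d0, and no marker of the list was at 0 from d4 onward. The lowest sum was in V1PAKI d16V, which had the most IGFBP5 (66.4 FPKM). IGFBP3 and IGFBP7 in that library were the lowest of the libraries from d10 onward. Ctrl d16V had nearly as much IGFBP5 (62.6 FPKM) at a sum of 298 FPKM. By median log2(FPKM + 1) the list was lower at d0, at 0.19 in Ctrl and 0.15 in V1PAKI, than in V1PAKI d16V, at 0.81. Both d0 libraries were the lowest in IGFBP5. Over the 10 libraries IGFBP5 had a Pearson r of 0.80 with IGFBP3 and 0.81 with IGFBP7. The 8 trophoblast and amnion markers summed to 309 FPKM in Ctrl d10 and 84.5 in V1PAKI d10. At d16D and d16V they summed to 15.7 and 27.6 FPKM in Ctrl, and to 167 and 3.33 in V1PAKI. Of these sums, HAND1 alone gave 223 FPKM in Ctrl d10 and 134 in V1PAKI d16D. In the same libraries GABRP stood at 25.6 and 16.8 FPKM, KRT7 at 16.3 and 1.53, and CGA at 23.6 and 0.0420. The part of mesenchymal, trophoblast or yolk sac cells in the IGFBP3 and IGFBP7 values was not tested.

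**Figure D3:**
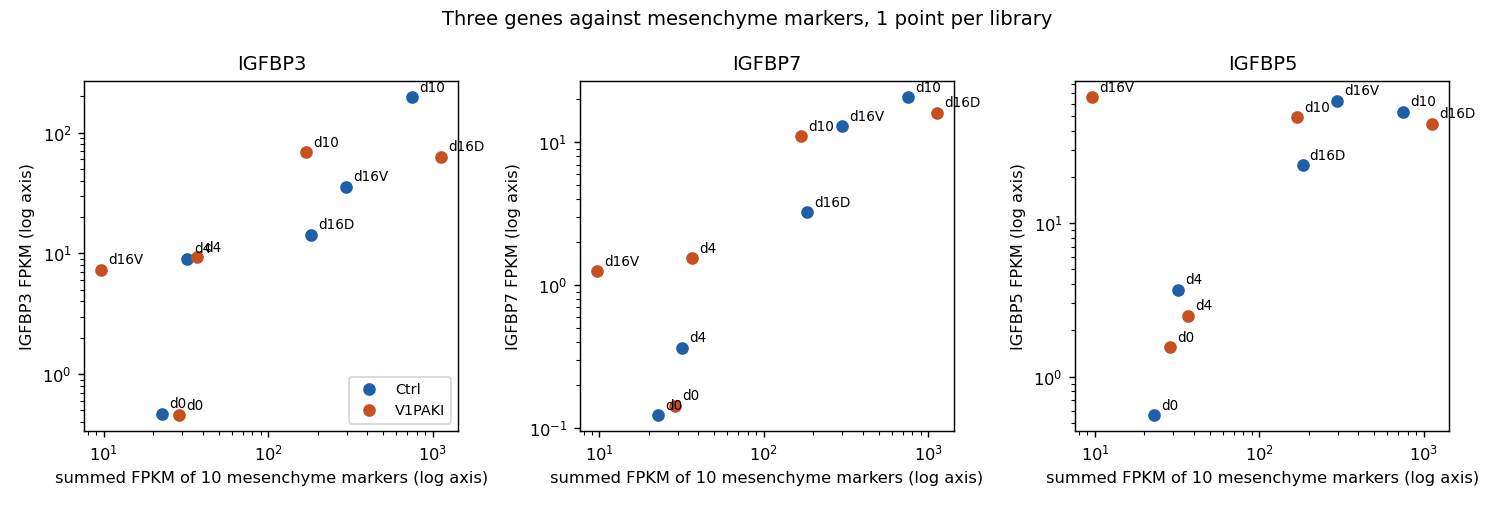
FPKM of IGFBP3, IGFBP7 and IGFBP5 (vertical, log axis) against the summed FPKM of 10 mesenchyme markers (horizontal, log axis), with 1 point per library labelled by stage and coloured by line. V1PAKI d16V has the lowest summed FPKM of markers (9.63) and is the highest library for IGFBP5 (66.4 FPKM), close to Ctrl d16V (62.6 FPKM). It is the lowest library from d10 onward for IGFBP3 (7.35 FPKM) and IGFBP7 (1.26 FPKM). The d0 libraries are the lowest of all for each gene.

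IGFBP2, a carrier typical of embryonic tissue, was the steadiest of the expressed members. It stood at 43.1, 26.1, 43.3, 62.7 and 53.7 FPKM in Ctrl at d0, d4, d10, d16D and d16V, and at 71.7, 26.9, 35.8, 52.5 and 62.2 FPKM in V1PAKI. Both d4 libraries were the lowest, and the highest library exceeded the lowest 2.74-fold. From d0 to d4 the log2 change was -1.04 (SE 0.26) without passing in limma (adjusted p = 0.157), with a level 1.65-fold lower in Ctrl and 2.67-fold lower in V1PAKI. The later steps were 0.55 from d4 to d10, 0.53 from d10 to d16D and 0.54 from d10 to d16V, each with SE 0.26 and adjusted p = 0.378, 0.364 and 0.30 in limma. The d16D and d16V means, 57.6 ± 7.20 and 57.9 ± 5.99 FPKM (SD, n = 2 lines), were within each other's spread.

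Among genes most like IGFBP2 were AC026471.4 (r = 0.91), the acid-sensing channel gene ASIC1 (r = 0.90) and the homeobox gene MEIS3 (r = 0.90). MEIS3 stood at 2.41 and 1.88 FPKM in Ctrl and V1PAKI at d4 and at 17.7 and 16.7 at d16V.

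IGFBP4, whose protein is a substrate of the protease PAPPA, was highest in stem cells and lowest at day 16. It stood at 54.2, 47.1, 45.7, 18.8 and 23.6 FPKM in Ctrl at d0, d4, d10, d16D and d16V, and at 113.3, 57.9, 25.6, 43.6 and 17.6 FPKM in V1PAKI. In Ctrl the day 16 libraries lay well below the earlier ones, while V1PAKI d16D lay above V1PAKI d10. No step passed in limma, with log2 changes of -0.58 (SE 0.47, adjusted p = 0.701) from d0 to d4 and -0.60 (SE 0.47, adjusted p = 0.612) from d4 to d10. From d10 they were -0.24 to d16D (adjusted p = 0.839) and -0.72 to d16V (adjusted p = 0.433).

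IGFBP6, which prefers IGF2 over IGF1, had the lowest peak of the tested members. It stood at 2.79, 0.830, 3.08, 0.943 and 0.515 FPKM in Ctrl at d0, d4, d10, d16D and d16V, and at 7.05, 1.62, 0.794, 4.23 and 0.386 FPKM in V1PAKI. V1PAKI d0 was the highest library and both d16V libraries were the lowest. From d0 to d4 it was 3.36-fold lower in Ctrl and 4.36-fold lower in V1PAKI, a log2 change of -1.34 (SE 0.56) that did not pass in limma (adjusted p = 0.408). IGFBP4 and IGFBP6 had a Pearson r of 0.83 with each other, and IGFBP4 had -0.74 with IGFBP5.

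The genes most like IGFBP4 were TMC6 (r = 0.99), IFITM2 (r = 0.97), an interferon-induced membrane protein, and TMEM92 (r = 0.97). For IGFBP6 they were PLP2 (r = 0.90), the neuropeptide gene NTS (r = 0.88) and ALDOC (r = 0.87), an aldolase of the glycolytic pathway. TMC6 stood at 4.54 and 8.37 FPKM in Ctrl and V1PAKI at d0 and at 1.75 and 0.714 at d16V.

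IGFBP1, a carrier made by liver and decidua under the control of insulin, was not above 0.0653 FPKM in any library. It was listed at 0 in 6 of 10 libraries, all 4 of day 16 included. In V1PAKI d16D, where the liver genes AFP and ALB stood at 1242 and 14.5 FPKM, IGFBP1 was listed at 0. Its neighbour IGFBP3 reached 197.7 FPKM in Ctrl d10 with IGFBP1 at 0.0305 FPKM in the same library. A value of 0 can also be an estimate that failed upstream, and the depth behind it is unknown. Of the other adjoining pair, IGFBP2 was above 26 FPKM throughout while IGFBP5 lay below 2 FPKM at d0.

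Over the 5 stages no member passed the test between the lines. In limma the V1PAKI minus Ctrl difference was 0.09 (SE 0.17) for IGFBP2, -0.31 (SE 0.53) for IGFBP3, 0.26 (SE 0.30) for IGFBP4, 0.22 (SE 0.21) for IGFBP5, 0.34 (SE 0.35) for IGFBP6 and -0.11 (SE 0.58) for IGFBP7. Each adjusted p was 1, and 0 of 6 members had an unadjusted p below 0.05, where 390 of 15779 genes (2.47%) did and 3 genes (0.019%) passed when adjusted. The median over the 6 members was 0.16, against -0.02 over all genes tested. These p-values measure spread between stages, since no stage was repeated within a line.

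Stage by stage, IGFBP3 and IGFBP7 differed between the single libraries of the lines at day 16, in opposite directions in the arms. At d16D IGFBP3 was 4.41-fold and IGFBP7 5.01-fold higher in V1PAKI than in Ctrl. At d16V IGFBP3 was 4.86-fold and IGFBP7 10.4-fold lower in V1PAKI. At d10 IGFBP3 was 2.88-fold and IGFBP7 1.88-fold lower in V1PAKI. The mesenchyme markers were ordered the same way in all of these pairs, at 1131 against 183 FPKM at d16D, 9.63 against 298 at d16V and 169 against 752 at d10. So were the yolk sac and liver markers, at 3091 against 550, 13.0 against 325 and 42.7 against 252. The sums of smooth muscle, endothelium, endoderm, and trophoblast and amnion markers had this order too. Some single genes of these lists did not have it. At d16V FOXA2 stood at 10.98 FPKM in V1PAKI against 8.12 in Ctrl, within endoderm sums of 11.16 and 12.06. VWF was higher in V1PAKI at d10 (2.26 against 1.11 FPKM) and d16V (1.76 against 1.45). CGA was lower in V1PAKI at d16D (0.042 against 0.646 FPKM). The medians of these lists had this order in each pair. The sums of neural crest, pluripotency, neural progenitor, neuron and ventral forebrain markers did not have this order in every pair. The pluripotency median did, at 4.05 against 1.93 at d16D, 1.92 against 3.32 at d16V and 5.57 against 5.68 at d10. So did the neural crest median, at 2.86 against 1.26, 0.95 against 1.47 and 1.19 against 1.99. The medians of neural progenitor, neuron and ventral forebrain markers did not have it in every pair.

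A difference of at least 1 in log2(FPKM + 1) was counted where either library of a stage reached 1 FPKM. By this count 4 members were higher in V1PAKI at d16D (IGFBP3, IGFBP4, IGFBP6 and IGFBP7), where 5.5% of genes were. At d16V 2 members were lower (IGFBP3 and IGFBP7), where 2.49% of genes were. At d10 2 members were lower (IGFBP3 and IGFBP6), where 7.45% of genes were, and at d4 there was no such member, where 1.65% of genes differed either way. At d0 IGFBP4 (2.09-fold) and IGFBP6 (2.53-fold) were higher in V1PAKI, where 3.73% of genes were. At d0 the median difference over all genes was 0.114, and with median-of-ratios scaling of the libraries it was -0.0417 and no member reached the mark of 1. IGFBP2 differed by at most 0.72, at d0, and IGFBP5 by at most 0.87, at d16D, although with a pseudocount of 0.1 the IGFBP5 difference at d0 was 1.32. With that pseudocount IGFBP7 at d4 differed by 1.83.

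**Figure D4:**
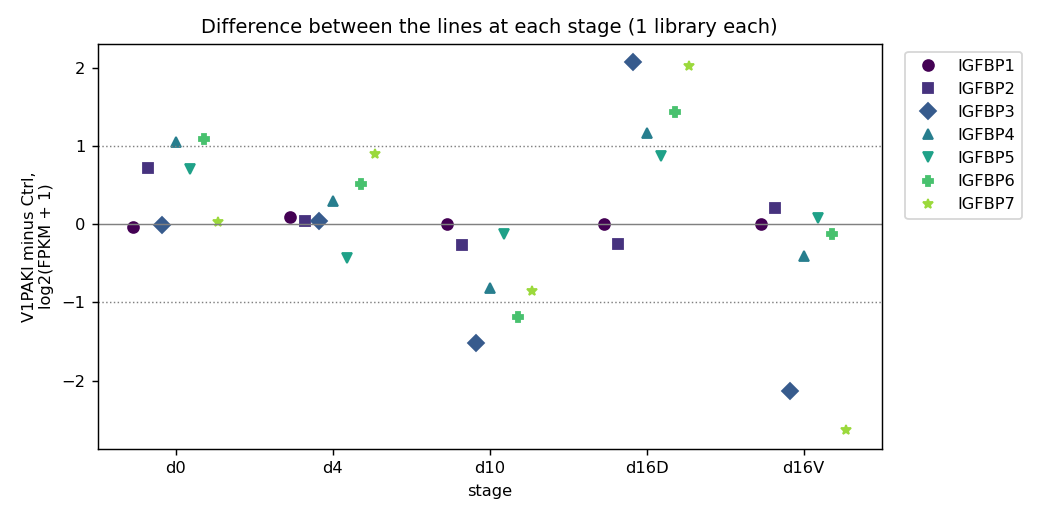
Difference between V1PAKI and Ctrl in log2(FPKM + 1) on the vertical axis for each gene at each stage, 1 library against 1 library, with dotted lines at -1 and 1. IGFBP3 and IGFBP7 are near 2 at d16D (2.07 and 2.02) and below -2 at d16V (-2.14 and -2.64).

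Between the day 16 arms the order of IGFBP3 and IGFBP7 was opposite in the lines. In Ctrl the d16V library had 2.49-fold more IGFBP3 and 4.03-fold more IGFBP7 than d16D, and in V1PAKI it had 8.61-fold less IGFBP3 and 12.9-fold less IGFBP7. A difference of at least 1 on the log2 scale in opposite directions was seen for 47 of 15779 genes (0.298%) between the arms, and from d10 to d16D, where IGFBP6 was such a gene, for 1.55%. A term for the difference between the lines, added to limma after the values had been seen, passed for 0 of 15779 genes (0%) at either step, with 5.42% and 21.4% at an unadjusted p below 0.05.

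Over the lines together, 0 of 6 members passed in limma in the steps other than d4 to d10. From d0 to d4, 129 genes (0.818%) passed, and 4 of 6 members had an unadjusted p below 0.05 (IGFBP2, IGFBP3, IGFBP5 and IGFBP6), where 11.9% of genes did. In that step IGFBP3 was higher by at least 1 on the log2 scale in both lines, as 1.73% of genes were, and IGFBP6 was lower by as much in both, as 1.01% were. From d10 to d16D, 147 genes (0.932%) passed, and no member had an unadjusted p below 0.05, where 17% of genes did. From d10 to d16V, 128 genes (0.811%) passed, and IGFBP3 alone of the members had an unadjusted p below 0.05, where 19.9% of genes did, and was lower by at least 1 in both lines, where 2.5% were. Between the arms 57 genes (0.361%) passed, and IGFBP5 alone of the members had an unadjusted p below 0.05, where 5.34% did. The median log2 change of the 6 members was 0.07, 1.84, -0.44, -0.81 and -0.54 from d0 to d4, d4 to d10, d10 to d16D, d10 to d16V and d16D to d16V. Over all genes tested the medians of these steps lay between -0.01 and 0.04.

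In the rest of the IGF pathway, the ligand IGF2 reached the highest level. IGF2 stood at 0.192, 14.0, 552, 76.9 and 170 FPKM in Ctrl at d0, d4, d10, d16D and d16V, and at 0.431, 12.3, 65.6, 541 and 6.44 FPKM in V1PAKI. Its highest libraries, Ctrl d10 and V1PAKI d16D, were also those of the mesenchyme markers. IGF1 did not exceed 0.0561 FPKM. The receptors varied little: IGF1R lay between 8.08 and 18.2 FPKM and IGF2R, which clears IGF2, between 12.9 and 18.6 FPKM.

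The adaptor IRS4 stood at 9.05, 10.5 and 6.68 FPKM in the Ctrl libraries d10, d16D and d16V. In V1PAKI the same stages had 26.9, 17.4 and 19.1 FPKM, each above its Ctrl counterpart. Of the genes that cut IGF carriers, HTRA1 reached 18.9 FPKM (Ctrl d10), PAPPA 3.73 FPKM (Ctrl d16V) and PAPPA2 2.47 FPKM (Ctrl d10). STC2, an inhibitor of PAPPA, stood at 11.8 and 8.95 FPKM in the stem cells of Ctrl and V1PAKI and at most at 6.03 FPKM from d10 onward. IGFBPL1, a relative with an IGFBP-type domain, lay between 16.2 and 38.2 FPKM. IGFALS, the partner of IGFBP3 in the serum complex, did not exceed 0.438 FPKM.

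Of 25 pathway genes listed beside the family, 24 were in the table and 16 were tested. Only CCN1 and CCN2, matrix proteins with an IGFBP-type domain that respond to cell attachment and stretch, passed in limma. CCN1 stood at 46.9 and 24.9 FPKM in Ctrl and V1PAKI at d10, at 10.7 and 6.65 at d16D and at 16.1 and 5.32 at d16V. CCN2 stood at 47.3 and 33.7 FPKM at d10, at 7.18 and 9.36 at d16D and at 12.1 and 4.24 at d16V. CCN1 fell by 1.90 (SE 0.29, adjusted p = 0.0355) from d10 to d16D and by 1.76 (SE 0.29, adjusted p = 0.0480) to d16V, and CCN2 by 2.15 (SE 0.35, adjusted p = 0.0428) and 2.30 (SE 0.35, adjusted p = 0.0357), all in limma. With no filter each of these 4 calls was lost, and each was also lost on leaving out 7 or 8 of the 10 libraries singly, Ctrl d0 and V1PAKI d0 among them. Without the block, CCN1 was lost at d16D and d16V and CCN2 at d16D (adjusted p = 0.0907, 0.0988 and 0.0514 in limma). CCN1 at d16V and CCN2 at d16D were also lost with a pseudocount of 0.1 and with TPM. CCN4, another gene of that family, reached 10.1 FPKM in Ctrl d10 and was not called.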

How the data were processed

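Bulk RNA was measured in 10 libraries, 1 per line and stage. The authors deposited FPKM values per gene symbol. Per the submitters' processing notes the tools were cutadapt 1.18, HISAT2 2.1.0 and Cufflinks, on GRCh38. No source used here names the annotation, any filter or how strand was treated. FPKM holds no counts here, so depth is unknown and no counting interval or detection floor is given. All 10 columns matched a sample title.

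Values were analysed as log2(FPKM + 1), a pseudocount of 1, so fold changes of low genes are understated on that scale; folds in the text are ratios of FPKM. Only genes that reached 1 FPKM in 2 or more libraries were tested. The linear model of limma 3.58.1 (R 4.3.3; eBayes with trend) had stage and genotype as terms, leaving 4 residual degrees of freedom (7.77 after moderation). Tests were two-sided and adjusted by Benjamini-Hochberg over 15779 genes, with a threshold of 0.05. The labels do not tie libraries to separate cultures, so p-values measure the spread between stages and lines. Only the genotype term of the fit was tested on simulated data, with a set shift and independent noise. The stage steps were not tested in this way. Alternatives were a pseudocount of 0.1, no filter, TPM, median-of-ratios scaling, no block and leaving out each library. TPM raised every value above 0 while the pseudocount stayed at 1, so the pseudocount weighed less in that run. Named were the 7 members, the 3 genes with the highest Pearson r for each tested member, markers, and IGF pathway genes that passed or reached 10 FPKM. IGF1, PAPPA, PAPPA2 and IGFALS are outside that rule and were added after their values were seen. The members and lists were chosen with earlier results of these data known.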

Additional observations from a re-analysis of the deposited data

Results flagged for a closer look

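For 3 results the lines went in opposite directions by at least 1 on the log2(FPKM + 1) scale, with 1 library per line and stage. Between d16D and d16V, IGFBP3 differed by 1.26 in Ctrl and -2.95 in V1PAKI, a difference of -4.20, and IGFBP7 by 1.73 and -2.93, a difference of -4.66. Between d10 and d16D, IGFBP6 differed by -1.07 in Ctrl and 1.54 in V1PAKI, a difference of 2.61. A term for the difference itself, added to the limma fit after these values had been seen (3 residual degrees of freedom), gave SE 0.81 and adjusted p = 0.288 for IGFBP3, SE 0.79 and adjusted p = 0.284 for IGFBP7, and SE 0.60 and adjusted p = 0.102 for IGFBP6. No gene passed for that term at either step, with 856 genes (5.42%) between the arms and 3377 (21.4%) from d10 to d16D at an unadjusted p below 0.05. Opposite changes of this size were seen for 0.298% of genes between the arms and 1.55% from d10 to d16D.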

How the results depend on the processing

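The labels carry no replicate numbers; steps were compared within lines, since genotype was a term of the fit, and stages served as the block for genotype. Depth is unknown, and each line has 1 library per stage, so counting error and the spread between cultures cannot be told apart. The member called from d4 to d10 (IGFBP5) was the 1 call, against 0 with no filter and 0 to 2 when libraries were left out in turn. From d10 to d16V the count was 0, and 0 to 1 with libraries left out. For the other steps and for genotype it was 0 in each alternative run.

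Counts over all genes moved as follows. With no filter they were 11 (129 with it) for d4 minus d0, 3 (227) for d10 minus d4, 34 (147) for d16D minus d10, 64 (128) for d16V minus d10 and 0 (3) for genotype. Without the block they were 237, 408, 244 and 277 for those 4 steps. TPM gave 79 for d4 minus d0 and 18 (57) for d16V minus d16D, and a pseudocount of 0.1 gave 91 for d16D minus d10 and 7 for d16V minus d16D. TPM moved the split from d4 to d10 from 63.9% to 87.9% higher. Leaving out libraries gave 0 to 192, 0 to 447, 29 to 384, 16 to 681, 5 to 101 and 0 to 3 genes for the 5 steps and genotype.

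Genes past 1 between the lines at d0, d4, d10, d16D and d16V numbered 621, 222, 1596, 1362 and 423. They numbered 1397, 563, 3092, 2734 and 1043 with a pseudocount of 0.1 and 1047, 460, 2862, 2536 and 880 with TPM. The TPM run changed both the scaling and the weight of the pseudocount, and their separate parts in these counts were not tested. Members past 1 went from 2 to 0 at d0 with median-of-ratios scaling and from 0 to 1 at d4 (IGFBP7) with a pseudocount of 0.1 and with TPM. The share of those genes that were higher in V1PAKI was 82.0%, 48.2%, 33.6%, 61.4% and 14.2%, against 69.5%, 44.8%, 51.8%, 53.5% and 24.1% with TPM and 67.2%, 58.2%, 31.9%, 71.6% and 19.5% with median-of-ratios scaling.

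Signs turned only for changes that had not passed. IGFBP2 between the arms was -0.0073 with median-of-ratios scaling, and the genotype difference of IGFBP7 was 0.013 with a pseudocount of 0.1. Leaving out single libraries, the lowest and highest log2 values from d4 to d10 were -1.27 and 0.075 for IGFBP4 and -0.65 and 1.26 for IGFBP6. From d10 to d16D they were -0.91 and 0.43 for IGFBP4, -0.72 and 1.19 for IGFBP6 and -2.26 and 0.40 for IGFBP7, and from d10 to d16V -1.86 and 0.056 for IGFBP6 and -3.11 and 0.052 for IGFBP7. Between the arms they were -0.20 and 0.22 for IGFBP2, -2.33 and 0.64 for IGFBP3, -1.04 and 0.093 for IGFBP4 and -2.18 and 0.98 for IGFBP7. For genotype they were -0.068 and 0.18 for IGFBP2, -0.91 and 0.14 for IGFBP3 and -0.64 and 0.52 for IGFBP7. The cause was not tested.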
